A study of Homo sapiens with 44 samples.

Results

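IL1RAP encodes the interleukin 1 receptor accessory protein, and it is described here with 5 other genes of the interleukin 1 (IL-1) system in acute myeloid leukemia (AML) cell lines that carry hairpins to GSK3A or to GSK3B. The members are IL1B, IL18, IL1R1, IL1RAP, IL1R2 and IL1RN. Every probe set that the array's annotation gives to 1 of these symbols alone was taken, which gave 6 of 12165 measured genes and 14 of the 22215 probe sets tested. IL1RN has 5 of them, IL18 has 1 and each of the other members has 2. IL1RAP was picked because earlier results of these data showed it higher with GSK3A hairpins and lower with GSK3B hairpins, so those differences are described here with no test. The other 5 members were tested on the same arrays.

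The lines were HL-60, which is promyelocytic, and THP-1, MOLM-14 and U937, which are monocytic. Each line carried 1 of 5 short hairpins: GSK3A hairpin 5, GSK3A hairpin 6, GSK3B hairpin 1, GSK3B hairpin 2 (2 arrays of each in every line) or a scrambled control hairpin (3 arrays in every line), which gives 16 GSK3A hairpin arrays, 16 GSK3B hairpin arrays and 12 control arrays. All groups, controls included, went through infection and puromycin selection at 1 µg/mL, begun 48 h after infection, and RNA was taken 48 h later. GSK3A and GSK3B are the paralogs of glycogen synthase kinase 3, which phosphorylates glycogen synthase, beta-catenin and many other proteins. Every group is a bulk culture of an established line, the promoter that drives the hairpins is not given in the sources used here, and 1 scrambled hairpin stands for all controls. The labels call the replicates biological and say nothing of separate cultures, so p-values may measure only technical spread. In bulk RNA, fewer cells of a type and less RNA per cell cannot be told apart.

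IL-1 beta, made by IL1B, is a proinflammatory cytokine that myeloid cells release after cleavage by caspase 1, and IL-18 is matured by the same protease. IL-1 beta binds the receptor encoded by IL1R1, and the accessory protein IL1RAP must then join the complex for a signal to pass to the adaptor MYD88. IL1RAP also serves the receptors for interleukin 33 and the interleukin 36 cytokines, and it is known as a surface protein of AML cells. The receptor encoded by IL1R2 is a decoy that binds the cytokine without signalling, and IL1RN encodes the receptor antagonist, which occupies IL1R1 without recruiting IL1RAP.

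In build GRCh38.p14 the gene IL1RAP lies at chr3:190514085-190659750 and IL18 at chr11:112143260-112164094. The other members lie on chromosome 2, with IL1R2 (chr2:101991960-102028544) beside IL1R1 (chr2:102070390-102179874), and IL1B (chr2:112829751-112836779) and IL1RN (chr2:113099360-113134014) further along.

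Promoter windows from 250 bases before to 50 bases after an annotated start of RefSeq (build GRCh38.p14) were used for 5 of the 6 members, 11 windows in all, and a window for IL18 was not used here. The windows of the accessory protein, the cytokine and the antagonist are shown because the results below turn on these genes. Capitals mark ATAAA on the sense strand, a TATA-box-like run, where it begins 40 to 20 bases before the start.
IL1RAP, chr3:190513835-190514134, plus strand: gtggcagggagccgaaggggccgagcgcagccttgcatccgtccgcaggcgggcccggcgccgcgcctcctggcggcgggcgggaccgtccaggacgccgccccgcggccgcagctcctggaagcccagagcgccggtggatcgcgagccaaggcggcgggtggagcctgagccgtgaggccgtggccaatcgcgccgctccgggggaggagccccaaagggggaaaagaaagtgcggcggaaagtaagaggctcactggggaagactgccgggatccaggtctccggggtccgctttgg
IL1B, chr2:112836730-112837029, minus strand: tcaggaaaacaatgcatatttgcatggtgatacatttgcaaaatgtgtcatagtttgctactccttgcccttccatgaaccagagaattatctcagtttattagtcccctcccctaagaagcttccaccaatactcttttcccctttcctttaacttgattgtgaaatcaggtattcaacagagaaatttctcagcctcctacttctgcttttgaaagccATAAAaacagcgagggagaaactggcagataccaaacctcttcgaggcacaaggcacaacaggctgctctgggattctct
IL1RN, window 3, chr2:113127348-113127647, plus strand: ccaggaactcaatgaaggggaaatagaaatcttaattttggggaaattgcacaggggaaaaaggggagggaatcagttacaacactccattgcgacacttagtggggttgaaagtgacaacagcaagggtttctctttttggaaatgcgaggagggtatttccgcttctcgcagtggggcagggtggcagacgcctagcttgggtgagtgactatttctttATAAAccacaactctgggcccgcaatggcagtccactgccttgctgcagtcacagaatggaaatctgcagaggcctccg
The IL1RAP window is 73.67% G and C and holds 36 CG pairs, against a median of 14 over 35116 human promoter windows, and 87.32% of those windows hold fewer. It has no capital run. The IL1B window is 42.33% G and C with 2 CG pairs, and its ATAAA lies 30 to 26 bases before the start. The IL1RN window is 49.67% G and C with 7 CG pairs, and its ATAAA lies 29 to 25 bases before the start. This run stands in that place in 4.65% of the 35116 windows, and the first of the IL1R2 windows holds it too. CTTTGA (bound by TCF and LEF factors, 12.92% of all windows on either strand), GAGGAA (bound by PU.1, 27.85%) and the NF-kB consensus (5.909%) were absent from the 3 windows shown. Of the windows not shown, IL1R1 window 1 holds CTTTGA and GAGGAA, and IL1R1 windows 2 and 3 and IL1R2 window 1 hold GAGGAA. IL1RN windows 1 and 2 hold none of these runs, nor ATAAA in that place. These counts describe the letters only and say nothing of whether a factor binds.

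Deposited values are intensities on a linear scale, and array medians lay between 18.9 and 22.9. Precision is limited by how many arrays each group has. The targeted transcripts were read first. GSK3B intensity was 22.4 to 97.7 with the GSK3B hairpins and 140.2 to 204 in controls, or 18.9% to 46.7% of control by line. GSK3A intensity was 31.3 to 46.7 with the GSK3A hairpins and 32.3 to 57.8 in controls, or 83.7% to 97.6% of control by line. In HL-60 it was 44.4 to 46.7 with these hairpins, below every control (51.7 to 57.8). Over the lines the log2 change was -0.09 (limma, adjusted p = 0.0204), where 16.9% of all probe sets passed. The arrays thus show a small loss of the GSK3A transcript. Each target was read by its brightest probe set alone, and the log2 scale used understates changes at low intensity. Of 5 measured myeloid markers, 3 lay above the array median on every array. PTPRC was at least 308 and CEBPA at least 1013 on every array, while MPO ranged from 10.3 to 5827 and SPI1 from 15.35 to 35.8. With GSK3A hairpins PTPRC (0.40 ± 0.05, adjusted p = 1.6e-06) and CSF3R (0.36 ± 0.08, 0.0020) rose and MPO fell (-0.39 ± 0.05, 6.0e-06) on the log2 scale, and MPO also fell with GSK3B hairpins (-0.40 ± 0.05, 4.4e-05). SPI1 (0.01 ± 0.03, limma, adjusted p = 0.947) and CEBPA (-0.07 ± 0.04, 0.357) did not pass with GSK3A hairpins. With GSK3B hairpins MPO alone of the 5 passed. The part of such shifts in myeloid markers in the results below was not tested. None of the 22 measured markers of T, B, erythroid, megakaryocyte, epithelial or fibroblast cells passed the test with either target. The summed T cell markers were 34.7 to 50.7 with GSK3A hairpins, 37.0 to 49.7 with GSK3B hairpins and 39.0 to 49.9 in controls. The epithelial sum reached 162, 286 and 229 in the same order, with KRT18 at 7.43 to 257 over the arrays. Arrays were run in plate columns 1 to 6 (first replicates, with 2 of the 3 controls) and 7 to 11. In MOLM-14 and U937 the deviations of arrays from their group means correlated at 0.46 or more between arrays in the same columns, so values are also given by plate columns where they touch a result.

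IL1RAP was carried by 1 of its probe sets, 205227_at, which lay above the array median on all 44 arrays. In every line each GSK3A hairpin array was brighter than each GSK3B hairpin array, by a mean ratio of 2.07 (HL-60), 1.87 (MOLM-14), 1.78 (U937) and 1.49 (THP-1). Controls lay mostly in between. The log2 difference from control over the 4 lines was 0.29 ± 0.06 with the GSK3A hairpins and -0.44 ± 0.06 with the GSK3B hairpins (± is the standard error of the limma fit throughout), and 0.73 ± 0.05 between the targets. The last value uses no control array, while the first and second share the controls. These are the values the gene was picked on.

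In HL-60 the IL1RAP intensity was 291 and 305 with GSK3A hairpin 5, 234 and 236 with GSK3A hairpin 6, 142 and 140.2 with GSK3B hairpin 1, 112 and 123 with GSK3B hairpin 2, and 196, 169.9 and 196 with the control hairpin. The 3 sets of arrays did not overlap. GSK3A hairpin arrays lay at 142% of the control mean and GSK3B hairpin arrays at 68.9%, and hairpin 5 stood above hairpin 6. In THP-1 the values were 79.8 and 90.2, then 82.2 and 88.9 with GSK3A hairpins 5 and 6, 53.1 and 54.7, then 61.0 and 60.0 with GSK3B hairpins 1 and 2, and 69.1, 76.1 and 65.4 in controls. Again no set overlapped another, and the means were 121% and 81.5% of control.

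In MOLM-14 the IL1RAP intensity was 205 and 168 with GSK3A hairpin 5, 195 and 142 with hairpin 6, 99.5 and 87.0 with GSK3B hairpin 1, 107 and 86.0 with hairpin 2, and 172, 174 and 136 in controls. The GSK3A hairpin arrays overlapped the controls and the GSK3B hairpin arrays lay below all of them, at 58.9% of the control mean, the lowest share of the 4 lines. In U937 the values were 93.2 and 83.3, then 102 and 77.3 with GSK3A hairpins 5 and 6, 61.2 and 51.1, then 47.6 and 40.7 with GSK3B hairpins 1 and 2, and 77.1, 76.5 and 52.0 in controls. There the GSK3A hairpin arrays lay above every control, the lowest by a narrow margin, and the GSK3B hairpin arrays overlapped control 3. Over all probe sets, every GSK3A hairpin array was above every control for 8.77% in HL-60, 6.34% in THP-1 and 5.15% in U937. Every GSK3B hairpin array was below every control for 4.54% in HL-60, 3.32% in THP-1 and 2.93% in MOLM-14. Nothing is read from these shares for IL1RAP, since the same arrays picked it.

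**Figure D1:**
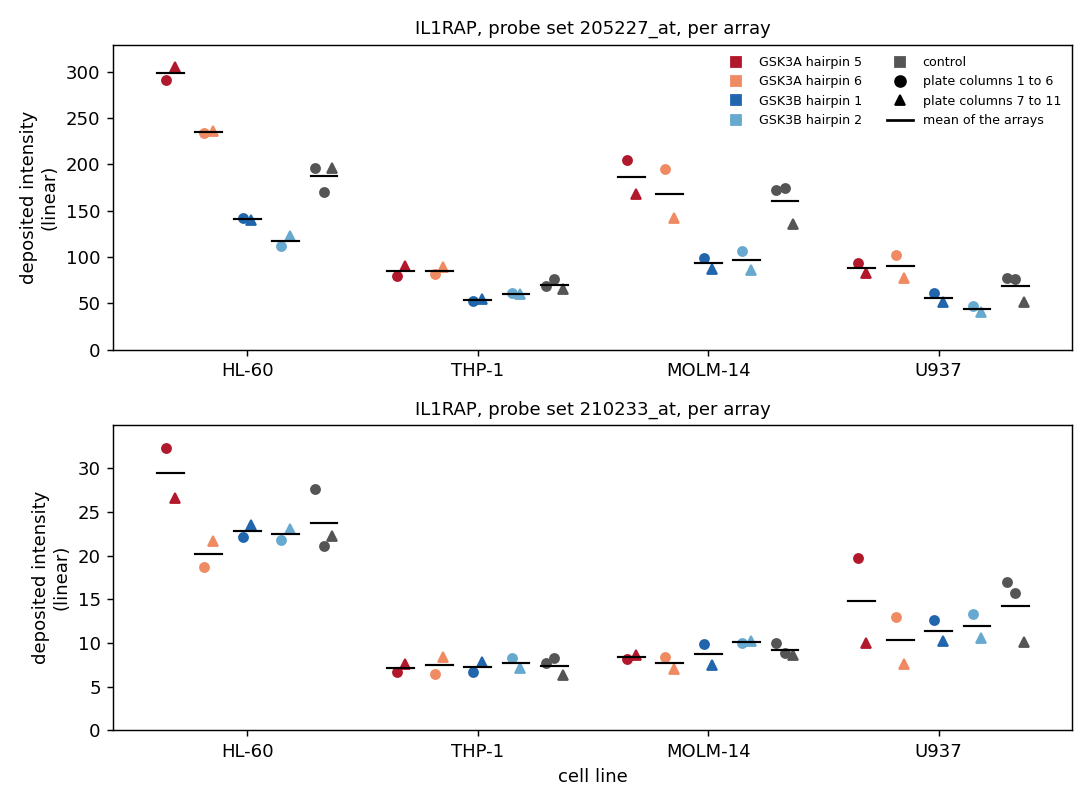
Deposited intensity (linear) of both IL1RAP probe sets on each of the 44 arrays, by cell line and hairpin, with circles for plate columns 1 to 6, triangles for columns 7 to 11 and a line at each mean. On 205227_at the GSK3A hairpin arrays sit above the GSK3B hairpin arrays in every line; 210233_at is dim and shows no such order.

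Split by hairpin and line, the values that picked IL1RAP give no further support. With the control of the same line subtracted, the log2 difference was above 0 for 8 of 8 pairs of line and GSK3A hairpin, from 0.07 (hairpin 6 in MOLM-14) to 0.61 (hairpin 5 in HL-60), and below 0 for 8 of 8 pairs of line and GSK3B hairpin, from -0.70 (hairpin 1 in MOLM-14) to -0.18 (hairpin 2 in THP-1). Whether the hairpins of a target differ was not used in the choice and was tested. GSK3A hairpin 5 minus hairpin 6 was 0.10 ± 0.07 over the lines (limma, adjusted p = 0.469, 95% interval -0.05 to 0.26), a comparison that 13.3% of all probe sets passed. With plate columns as a term the same difference had an adjusted p of 0.0476. The share of all probe sets that passed this comparison in that fit is not given here. GSK3B hairpin 1 minus hairpin 2 was 0.08 ± 0.07 (adjusted p = 0.664, interval -0.07 to 0.24), which 8.35% passed.

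Differences between lines in these changes were not detectable for IL1RAP at this number of arrays. The GSK3A change was 0.45 in HL-60, 0.32 in U937, 0.23 in THP-1 and 0.14 in MOLM-14 (each ± 0.11), with a moderated F-test between lines at adjusted p = 0.707 (5.57% of all probe sets passed). The GSK3B change was -0.48 in HL-60, -0.36 in U937, -0.24 in THP-1 and -0.68 in MOLM-14 (each ± 0.11), with an F-test at adjusted p = 1.00 (0.176% passed). Plate columns moved with the IL1RAP level in MOLM-14 and U937, where columns 7 to 11 were lower by 0.29 and 0.26 on the log2 scale, and little in HL-60 (0.06 higher) and THP-1 (0.04 higher). Within columns 1 to 6 alone the difference from control was 0.27 with GSK3A hairpins and -0.46 with GSK3B hairpins, and within columns 7 to 11 it was 0.38 and -0.35.

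The other IL1RAP probe set, 210233_at, did not follow this order of targets. Its intensity ran from 6.28 to 32.3, above the array median on 10 of 44 arrays, all of them HL-60. Differences from control were -0.04 ± 0.04 with either target. GSK3A hairpin 5 minus hairpin 6 was 0.14 over the lines, and with plate columns as a term it passed (limma, adjusted p = 0.0104). That p is not from the fit reported. The share of all probe sets passing there is not given here, so nothing is read from it. In HL-60, its brightest line, values were 32.3, 26.6, 18.6 and 21.6 with GSK3A hairpins, 22.1, 23.5, 21.8 and 23.1 with GSK3B hairpins and 27.6, 21.1 and 22.3 in controls, and all sets overlapped. The probe sets of 1 gene can read different transcripts, and which transcripts these read is not given in the sources used here.

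In control arrays the level of IL1RAP depended on the line. On 205227_at the order was HL-60, MOLM-14, THP-1 and U937, with an F-test over the lines at adjusted p = 2.7e-11. HL-60 and MOLM-14 did not differ beyond their spread (0.19 ± 0.12, adjusted p = 0.247), nor did THP-1 and U937 (-0.00 ± 0.12, adjusted p = 0.988). Each of the first pair exceeded each of the second by 1.10 to 1.30 on the log2 scale. In all, 9 of 14 member probe sets passed the F-test between lines, against 61.1% of all probe sets, so such differences are common on these arrays. For single pairs of lines the share of all probe sets was 44% for HL-60 and THP-1, 36% for HL-60 and MOLM-14, 38.6% for HL-60 and U937, 37% for THP-1 and MOLM-14, 41.9% for THP-1 and U937 and 37.6% for MOLM-14 and U937.

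The cytokine IL1B rose with GSK3A hairpin 5 and not detectably with hairpin 6. On probe set 205067_at in HL-60, hairpin 5 gave 101 and 104, hairpin 6 gave 20.51 and 20.04, GSK3B hairpin 1 gave 33.6 and 38.5, GSK3B hairpin 2 gave 14.5 and 13.3, and controls gave 21.2, 17.5 and 22.3. Hairpin 5 stood at 5.02 times the control mean, well apart from all other HL-60 arrays, while hairpin 6 lay within the controls. In MOLM-14 the values were 82.0 and 35.8 with hairpin 5, 32.4 and 25.4 with hairpin 6, 113 and 48.2 with GSK3B hairpin 1, 34.8 and 15.1 with GSK3B hairpin 2, and 41.0, 36.2 and 19.8 in controls. Within each MOLM-14 hairpin the array in columns 1 to 6 was the brighter, as in U937, where hairpin 5 gave 83.2 and 31.4, hairpin 6 gave 39.6 and 25.9, the GSK3B hairpins gave 38.4, 22.8, 29.4 and 17.9, and controls gave 39.1, 37.8 and 16.6. THP-1 was dim, at 10.1 to 21.5 over all its arrays.

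Over the lines, hairpin 5 minus control was 0.77 ± 0.15 for IL1B on 205067_at (limma, adjusted p = 4.5e-04) and 0.49 ± 0.13 on 39402_at (0.0085), against 17.8% of all probe sets called. Hairpin 6 gave 0.00 ± 0.15 and -0.09 ± 0.13 (adjusted p = 0.999 and 0.761), against 13.1%. The difference between the hairpins passed the test on both probe sets, at 0.77 ± 0.17 (0.0016) and 0.58 ± 0.14 (0.0054). With HL-60 left out neither passed, at 0.48 (adjusted p = 0.247) and 0.36 (0.351). HL-60 alone gave 1.64 ± 0.33 (0.0019) and 1.26 ± 0.29 (0.0062), where 5.43% of all probe sets passed. Within plate columns 1 to 6 the difference on 205067_at was 0.93 (0.0165), and within columns 7 to 11 it was 0.62 (0.158).

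The mean of both GSK3A hairpins averages these unlike values. It passed on 205067_at, at 0.39 ± 0.13 (adjusted p = 0.0352), and did not on 39402_at, at 0.20 ± 0.11 (0.266). With plate columns as a term both passed, at 0.44 (8.8e-07) and 0.24 (0.0122). The 205067_at call was lost with the spread between hairpins in the error (adjusted p = 0.286) and without HL-60 (0.24, 0.463) or THP-1 (0.46, 0.0731). Within plate columns 1 to 6 and 7 to 11 the value was 0.43 (0.0998) and 0.45 (0.291). It was also lost on leaving out any of 12 single arrays, with adjusted p from 0.0512 to 0.0763. These were HL-60 control 2, THP-1 controls 2 and 3, MOLM-14 control 3, U937 control 3, the second arrays of HL-60 hairpin 5, THP-1 hairpin 5 and THP-1 hairpin 6, and the first arrays of both GSK3A hairpins in MOLM-14 and in U937.

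The GSK3B hairpins left IL1B without a call (0.10 ± 0.13, adjusted p = 0.873, and 0.01 ± 0.11, 0.987). On 205067_at, hairpin 1 alone gave 0.38 ± 0.15 (0.244, against 3.55% of all probe sets called) and hairpin 2 gave -0.19 ± 0.15 (0.665, against 4.77%). They differed from each other, with hairpin 1 above hairpin 2 by 0.56 ± 0.17 on 205067_at (0.0318) and 0.47 ± 0.14 on 39402_at (0.0419). Neither passed without HL-60 (0.46, 0.414 and 0.45, 0.315) or MOLM-14 (0.35, 0.19 and 0.22, 0.261), and on leaving out any of 12 single arrays: all 4 GSK3B hairpin arrays of each of HL-60 and THP-1, and in MOLM-14 and U937 the first array of hairpin 1 and the second of hairpin 2. The adjusted p was then 0.0505 to 0.124 on 205067_at and 0.0538 to 0.161 on 39402_at.

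IL18, the other cytokine, differed between the lines, and no change with either target passed the test. Its intensity in controls was 92.9 to 98.9 in U937, 46.5 to 54.5 in THP-1, 28.8 to 49.5 in MOLM-14 and 19.5 to 22.96 in HL-60 (F-test, adjusted p = 4.1e-05). U937 exceeded each other line (0.81 to 1.52 on the log2 scale), whereas THP-1 and MOLM-14 did not differ beyond their spread (0.21 ± 0.24, adjusted p = 0.576). The change was 0.14 ± 0.11 with GSK3A hairpins (adjusted p = 0.481) and 0.12 ± 0.11 with GSK3B hairpins (0.800). The brightest array was 1 of the U937 arrays with hairpin 6, at 197, beside 97.0 on its replicate. Hairpin 5 minus 6 was -0.32 ± 0.15 (0.181), which passed with plate columns as a term (0.0057), a fit whose share for this comparison is not given here.

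The receptor IL1R1 was measurable on these arrays in HL-60. Probe set 202948_at lay above the array median on 9 arrays, all HL-60, and ran from 5.02 to 8.83 in the other lines. The HL-60 values were 35.8 and 29.6 with GSK3A hairpin 5, 71.2 and 47.0 with hairpin 6, 51.9 and 48.2 with GSK3B hairpin 1, 17.3 and 14.8 with GSK3B hairpin 2, and 30.9, 34.1 and 27.4 in controls. Hairpin 6 and GSK3B hairpin 1 lay above every control, GSK3B hairpin 2 below every control, and hairpin 5 overlapped them. Within HL-60, hairpin 6 minus control was 0.63 ± 0.07 (limma, adjusted p = 3.1e-06), GSK3B hairpin 1 was 0.47 ± 0.07 (3.2e-04), GSK3B hairpin 2 was -0.59 ± 0.07 (8.1e-06) and hairpin 5 was 0.03 ± 0.07 (0.925). Of all probe sets 3.25%, 1.74%, 2.03% and 9.38% passed these 4 comparisons. Hairpins of 1 target thus differed, hairpin 5 minus 6 by -0.60 ± 0.08 (1.05e-05) and GSK3B hairpin 1 minus 2 by 1.06 ± 0.08 (8.6e-10, where 5.55% of all probe sets passed). The GSK3A change differed between lines (F-test, adjusted p = 0.0266), at 0.33 ± 0.06 in HL-60 (7.6e-04) and -0.02 to 0.01 in the others, where the probe set was dim and a fall could not be read. That F-test no longer passed without HL-60 control 1 or 3, or without the first HL-60 array of hairpin 5 or of hairpin 6. It also did not pass with the spread between hairpins in the error, or without THP-1 or MOLM-14. The second IL1R1 probe set, 215561_s_at, never exceeded 5.91.

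Over the lines, IL1R1 was higher with GSK3A than with GSK3B hairpins by 0.11 ± 0.03 on 202948_at (adjusted p = 0.0062), and this rested on HL-60: without it the value was 0.02 (0.680). It was also lost with the spread between hairpins in the error (0.485). The decoy receptor IL1R2 stayed below the array median on all 44 arrays with both probe sets, at most 17.1, and no change of either target passed the test. Within HL-60 its hairpins differed on 205403_at, hairpin 5 minus 6 by 0.33 ± 0.07 (0.0026) and GSK3B hairpin 1 minus 2 by 0.30 ± 0.07 (0.0075), and on 211372_s_at the second difference was also 0.30 ± 0.05 (8.3e-04). In controls IL1R2 was brighter in HL-60 than in each other line, by 0.30 to 0.40 on 205403_at and by 0.18 to 0.20 on 211372_s_at.

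**Figure D2:**
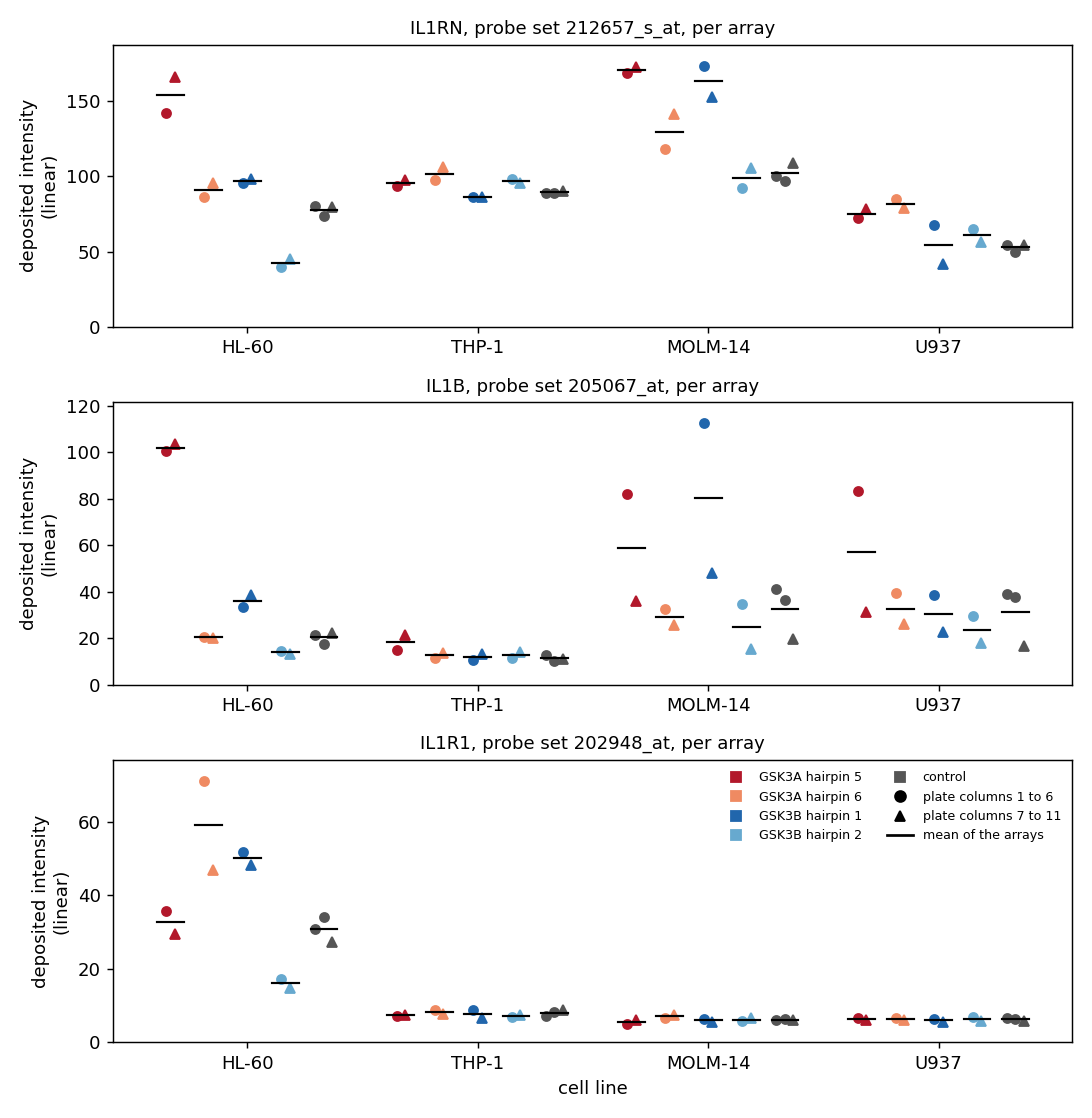
Deposited intensity (linear) of IL1RN 212657_s_at, IL1B 205067_at and IL1R1 202948_at on each of the 44 arrays, by cell line and hairpin, with circles for plate columns 1 to 6, triangles for columns 7 to 11 and a line at each mean. IL1RN is above every control with both GSK3A hairpins in all 4 lines, IL1B stands out with GSK3A hairpin 5 in HL-60 at 101 and 104, and IL1R1 is bright in HL-60 alone.

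The antagonist IL1RN rose with both GSK3A hairpins. On 212657_s_at, HL-60 gave 142 and 166 with hairpin 5, 86.2 and 95.5 with hairpin 6, 95.8 and 98.3 with GSK3B hairpin 1, 39.5 and 45.2 with GSK3B hairpin 2, and 80.2, 73.8 and 80.0 in controls. MOLM-14 gave 169 and 173 with hairpin 5, 118 and 142 with hairpin 6, 174 and 153 with GSK3B hairpin 1, 92.6 and 106 with GSK3B hairpin 2, and 100.4, 96.7 and 109 in controls. In both lines hairpin 5 exceeded hairpin 6, hairpin 6 exceeded every control, and GSK3B hairpin 1 was also high while GSK3B hairpin 2 was below or among the controls.

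U937 gave 72.1 and 78.6 with hairpin 5, 85.0 and 79.0 with hairpin 6, 67.8 and 41.6 with GSK3B hairpin 1, 65.2 and 56.7 with GSK3B hairpin 2, and 54.7, 49.8 and 54.2 in controls. THP-1 gave 93.7 and 98.0, then 97.8 and 106 with the GSK3A hairpins, 86.4 and 86.4, then 98.4 and 95.6 with the GSK3B hairpins, and 89.2, 88.8 and 90.2 in controls. Every GSK3A hairpin array was above every control of its line in all 4 lines, which holds for 52 of the 22215 probe sets (0.234%). The order also held for a GSK3B hairpin in each line, though not the same hairpin. Both GSK3B hairpin 2 arrays lay above every control in U937 and THP-1, as both hairpin 1 arrays did in HL-60 and MOLM-14. The hairpin 1 arrays lay on either side of the controls in U937 and below every control in THP-1.

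Over the lines the IL1RN change on 212657_s_at was 0.39 ± 0.04 with GSK3A hairpins (limma, adjusted p = 1.8e-07) and 0.05 ± 0.04 with GSK3B hairpins (0.785). The difference between the targets was 0.34 ± 0.04 (2.8e-07). Hairpins 5 and 6 both passed, at 0.49 ± 0.05 (4.7e-08) and 0.29 ± 0.05 (2.0e-04). Of the GSK3B hairpins, hairpin 1 passed at 0.20 ± 0.05 (0.0197) and hairpin 2 did not, at -0.11 ± 0.05 (0.291). By line the GSK3A change was 0.48 in HL-60 (4.4e-04), 0.50 in MOLM-14 (1.6e-04) and 0.46 in U937 (0.0015), and 0.12 in THP-1 (0.900). Of all probe sets 6.91%, 12.3%, 4.83% and 1.35% passed in these lines. The difference between lines did not pass (F-test, adjusted p = 0.129). With the spread between hairpins in the error the call remained (adjusted p = 0.0098). That fit takes 1 correlation between arrays of a hairpin, 0.091, for all probe sets. It can therefore understate the spread between hairpins for a probe set whose hairpins differ, as they do here. Within plate columns 1 to 6 and 7 to 11 alone the change was 0.35 (0.0654) and 0.41 (0.202). Those fits have 1 array for each hairpin and line and take their error from how hairpins vary over lines.

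The hairpins of a target also differed for IL1RN on 212657_s_at. Hairpin 5 minus 6 was 0.20 ± 0.06 (adjusted p = 0.0156), lost without HL-60 (0.05, 0.832) or MOLM-14 (0.14, 0.189) and without the second HL-60 array of hairpin 5 (0.17, 0.0567) or the first MOLM-14 array of hairpin 6 (0.17, 0.0555). GSK3B hairpin 1 minus 2 was 0.32 ± 0.06 (3.2e-04), lost without HL-60 (0.12, 0.564) or MOLM-14 (0.21, 0.0563). Within lines, IL1RN was lower with GSK3B hairpin 2 in HL-60 (-0.66 ± 0.10, 1.9e-04) and higher with GSK3B hairpin 1 in MOLM-14 (0.61 ± 0.10, 0.0013, where 1.2% of all probe sets passed), so the mean over GSK3B hairpins near 0 covers opposite differences.

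Of the other IL1RN probe sets, 212659_s_at, above the array median on 2 arrays, rose by 0.14 ± 0.04 with GSK3A hairpins (adjusted p = 0.0090). Its change was 0.22 in columns 1 to 6 and 0.00 in columns 7 to 11, and it no longer passed without HL-60 (0.09, 0.192) or with the spread between hairpins in the error (0.0988). On 216243_s_at the change was 0.17 ± 0.08 (0.185), with columns 7 to 11 lower by 0.59 in MOLM-14. With plate columns as a term it was 0.20 (1.4e-04). The remaining probe sets, 216245_at and 216244_at, stayed at or below 10.5 and 6.67.

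In all, 3 of the 12 probe sets of the 5 other members passed with GSK3A hairpins, against 16.9% of all probe sets, and all 3 were higher (8.57% of all probe sets were). None passed with GSK3B hairpins, against 2.54%. Between the targets 2 of 12 passed, against 17.6%. With plate columns as a term 6 of 12 passed with GSK3A hairpins (27.7% of all probe sets), none with GSK3B hairpins (7.99%) and 5 of 12 between the targets (28.5%).

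**Figure D3:**
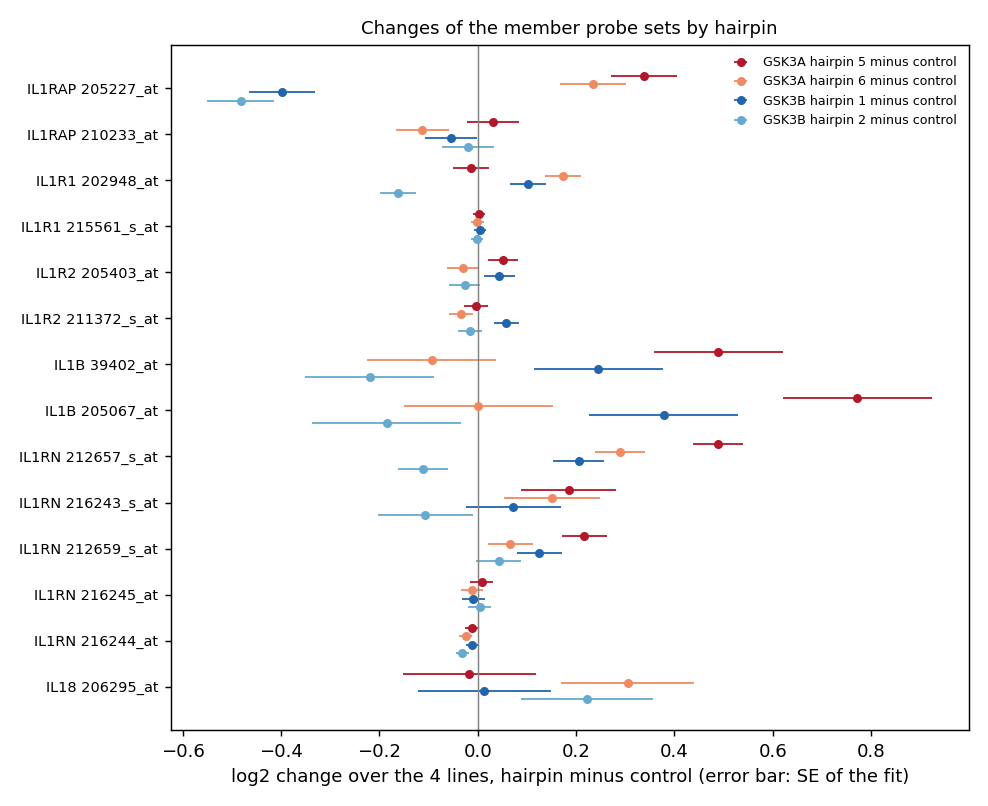
Log2 change of each of the 14 member probe sets against control, averaged over the 4 lines, for each hairpin, with the standard error of the fit. IL1RAP 205227_at is right of 0 with both GSK3A hairpins and left of 0 with both GSK3B hairpins, IL1RN 212657_s_at is at 0.49 and 0.29 with GSK3A hairpins 5 and 6, and IL1B 205067_at is at 0.77 with hairpin 5 and 0.00 with hairpin 6.

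**Figure D4:**
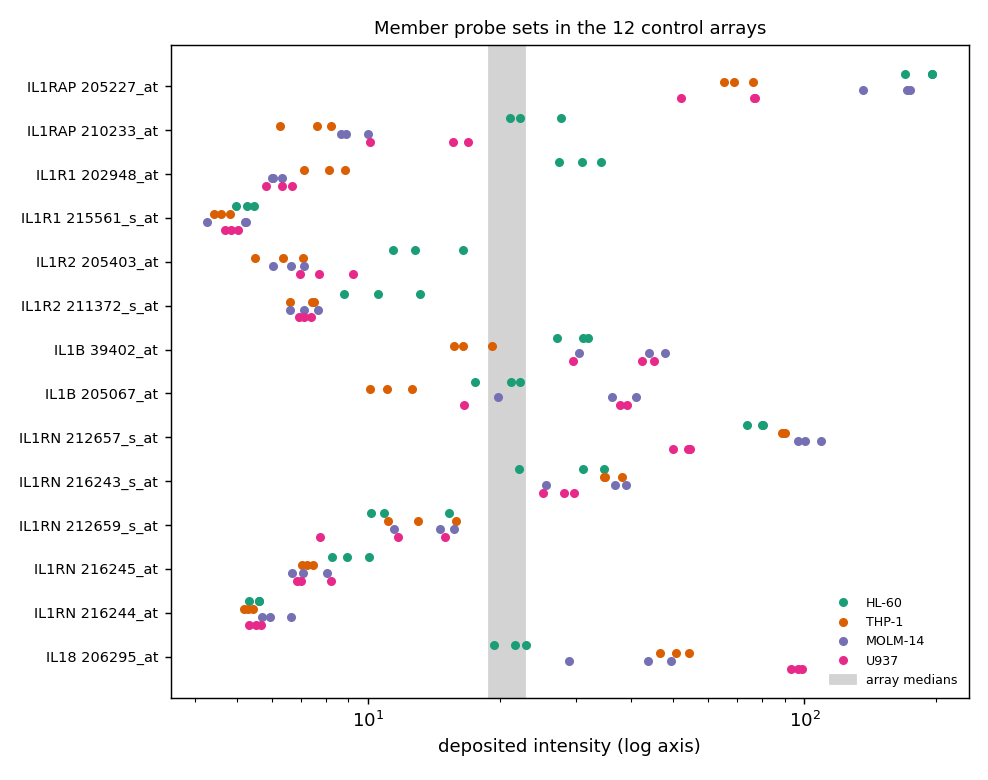
Deposited intensity (log axis) of the 14 member probe sets on the 12 control arrays, coloured by line, with the range of array medians (18.9 to 22.9) shaded. IL1R1 202948_at is right of the shading in HL-60 alone, IL18 is highest in U937 at 92.9 to 98.9, and both IL1R2 probe sets lie left of it in every line.

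The rest of the pathway was read from 5 lists of 61 genes, of which 52 were measured, each by its brightest probe set. With GSK3A hairpins 8 rose and none fell, against 10.4% of all genes rising and 9.72% falling. The median change over the 52 genes was 0.02, beside -0.00 over all genes. With GSK3B hairpins 2 rose and 1 fell, against 1.64% and 1.45% of all genes, and the median was 0.00 beside 0.00. Among 6 other ligands and 8 other receptors and soluble inhibitors none passed with either target. That group includes SIGIRR, an inhibitory receptor, at 0.07 with GSK3A hairpins (limma, adjusted p = 0.363) and -0.07 with GSK3B hairpins (0.640). Between the targets SIGIRR differed by 0.14 (0.0193), a comparison that 17.6% of all probe sets passed.

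Of 14 measured signalling genes next to the receptor, 4 rose with GSK3A hairpins and 10 did not pass, where 10.4% of all genes rose. MYD88, the adaptor, rose by 0.19 ± 0.03 (limma, adjusted p = 7.9e-05), and TOLLIP, which binds the receptor complex and dampens it, by 0.21 ± 0.04 (2.0e-04). PELI1 and PELI2, ubiquitin ligases of the Pellino family, rose by 0.19 ± 0.05 (0.0060) and 0.21 ± 0.06 (0.0110). Without HL-60, PELI1 gave 0.00 (0.983) and PELI2 0.14 (0.134), and PELI2 gave 0.20 without U937 (0.0630). TOLLIP gave 0.14 without MOLM-14 (0.0540). MYD88 was at 0.30 with GSK3A hairpin 5 and 0.08 with hairpin 6. With GSK3B hairpins TOLLIP rose by 0.22 ± 0.04 (0.0014) and MYD88 by 0.14 ± 0.03 (0.0151); these share the control arrays with the GSK3A values. That MYD88 call was lost without THP-1 (0.15, 0.0735) or MOLM-14 (0.09, 0.272). UBE2N, a ubiquitin-conjugating enzyme that acts with TRAF6, fell by 0.47 ± 0.07 on the log2 scale with GSK3B hairpins (1.4e-04), at -0.16 with hairpin 1 and -0.78 with hairpin 2. Its probe set carries the suffix x, by which the array maker marks probes that may also match other transcripts.

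Of 10 genes of cytokine processing, CASP1, which cleaves IL-1 beta and IL-18, rose by 0.22 ± 0.05 with GSK3A hairpins (adjusted p = 0.0024), at 0.34 with hairpin 5 and 0.10 with hairpin 6, and at 0.18 without HL-60 (0.106). AIM2, a DNA sensor of an inflammasome, rose by 0.09 ± 0.02 (0.0083) at an intensity of at most 17.0, and did not pass without MOLM-14 (0.07, 0.121) or U937 (0.06, 0.0858). Of 14 genes that IL-1 induces, ICAM1, an adhesion molecule, rose by 0.19 ± 0.05 (0.0042) and NFKBIA, the inhibitor of NF-kB, by 0.17 ± 0.04 (0.0054). ICAM1 was at 0.34 with hairpin 5 and 0.05 with hairpin 6, and at 0.13 without U937 (0.0703), and NFKBIA was at 0.10 without HL-60 (0.372). With the spread between hairpins in the error TOLLIP, CASP1, PELI1 and AIM2 kept their GSK3A calls (adjusted p = 5.0e-04, 0.0414, 0.0343 and 0.0477), while MYD88 (0.0625), NFKBIA (0.0691), ICAM1 (0.0899) and PELI2 (0.117) did not. With GSK3B hairpins TOLLIP kept its call (0.0086), and UBE2N (0.0614) and MYD88 (0.694) did not. That fit takes 1 correlation for all probe sets, so a kept call may not allow for the gene's own spread between hairpins.

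Genes whose pattern was most like that of IL1RAP 205227_at were ranked by Pearson correlation over the 20 group means, each line centred on its own mean, among 8353 probe sets that name 1 gene and average at least 50. The points share control arrays and lines, and IL1RAP was picked for being high with GSK3A and low with GSK3B hairpins on these arrays, so the values are a description and genes of that order rank high by the choice. GSK3B, whose transcript the GSK3B hairpins lower on the same arrays, stood first at r = 0.93, as that choice favours. MCTP1, a membrane protein with calcium-binding domains, had 0.92, and NLRP3, the sensor of the inflammasome that activates caspase 1, had 0.92. SLC5A3, a myo-inositol transporter, had 0.89 and NINJ2, a ninjurin, 0.89. The lowest were BICD2, a dynein adaptor, at -0.93, ESRRA, an orphan nuclear receptor, at -0.92, and TOMM70, a mitochondrial import receptor, at -0.92. For all candidates, 5% lay above 0.66 and 5% below -0.67. NLRP3, also on the list of cytokine processing, was at 0.18 ± 0.07 against control with GSK3A hairpins (limma, adjusted p = 0.0642). With GSK3B hairpins it was at -0.15 ± 0.07 (0.341). Neither passed. Between the targets NLRP3 differed by 0.33 (limma, adjusted p = 2.2e-04), where 17.6% of all probe sets passed. A gene ranked for being like IL1RAP is favoured in that comparison. The rank of NLRP3 here rests on the same values, so they add nothing to it. Other members were less alike, with IL1RN at 0.59 (212657_s_at) and 0.61 (216243_s_at), IL1B at 0.42 and 0.35, IL1R1 202948_at at 0.28, the second IL1RAP probe set at 0.10 and IL18 at -0.15.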

How the data were processed

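RNA was measured on 44 Affymetrix Human Genome U133 plate arrays. The deposited table gives a linear intensity for each of 22277 probe sets; per the submitters' processing notes, RMA and MAS5 were used, and which one gave this table, with versions and settings, is not given in the sources used here. All 44 columns matched a labelled sample. Groups came from the sample titles and plate columns from the well in the array names.

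The 62 control probe sets were dropped. Intensities were turned into log2(value + 16), which understates changes of dim probe sets, and quantile-normalized because array medians spanned 0.154 on the log2 scale. Means of the 20 groups of line and hairpin were estimated in limma 3.58.1 (R 4.3.3, 24 residual degrees of freedom). The spread lies between replicate arrays of a hairpin. Tests were two-sided, with Benjamini-Hochberg adjustment over 22215 probe sets and a threshold of 0.05; every adjusted p in the text comes from limma. A change of a target is the mean of its hairpins minus control, averaged over lines. Promoter windows came from RefSeq. The fitting script was tested on simulated data.

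Members and gene lists were chosen with earlier results of these data known. Named genes were all members, GSK3A and GSK3B, the 5 highest and 3 lowest correlates of IL1RAP, and up to 8 called pathway genes for each target with the smallest adjusted p; SIGIRR was added after its values were seen. Alternatives covered the scaling, the pseudocount, a filter at 32, 1 probe set a gene, replicate and plate terms, hairpins as a random block, and leaving out lines or arrays.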

Additional observations from a re-analysis of the deposited data

Results flagged for a closer look

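The change of IL1R1 on probe set 202948_at with the GSK3A hairpins differed between the lines (limma, moderated F-test, adjusted p = 0.0266). It was 0.33 ± 0.06 in HL-60, and -0.02, 0.01 and 0.00 in THP-1, MOLM-14 and U937, where the probe set lay below the array median on every array. A difference on a dim probe set is compressed by the pseudocount, and whether the lines would differ at a measurable level was not tested. The F-test no longer passed without any 1 of 4 HL-60 arrays (controls 1 and 3 and the first arrays of hairpins 5 and 6). It also did not pass with pseudocount 4, with hairpins as a random block, or without HL-60, THP-1 or MOLM-14.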

How the results depend on the processing

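IL1RAP 205227_at kept its direction in all 59 alternative settings, at 0.21 to 0.38 with GSK3A hairpins and -0.51 to -0.31 with GSK3B hairpins. The gene was picked for this direction on the same arrays, so keeping it adds no support. Without 1 array each it was 0.25 to 0.31 and -0.48 to -0.42. Hairpin 5 minus 6 was then 0.05 to 0.15 and GSK3B hairpin 1 minus 2 was 0.05 to 0.12; with plate columns as a term hairpin 5 minus 6 stayed at 0.10 and passed.

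Probe sets of other members called with GSK3A hairpins were 3 in the fit reported, and 1 with 1 probe set a gene, 6 with plate columns as a term, 0 in columns 7 to 11, 1 with the random block and 1 without HL-60. Between the targets they were 2, and 5 with plate columns as a term, 0 in columns 1 to 6, 1 in columns 7 to 11, 1 with the random block, 1 without HL-60 and 5 without MOLM-14. Pathway genes called with GSK3A hairpins were 8, and 13 with plate columns as a term, 4 and 0 in columns 1 to 6 and 7 to 11, 4 with the random block and 4 without HL-60. With GSK3B hairpins they were 3, and 6 with plate columns as a term, 0 in columns 7 to 11 and 1 with the random block. The fits within plate columns have fewer arrays, and the fit with 1 probe set a gene tests fewer member probe sets. Of all probe sets 16.9% were called with GSK3A hairpins in the fit reported and 27.7% with plate columns as a term. These shares were 17.6% and 28.5% between the targets, and 2.54% and 7.99% with GSK3B hairpins. Shares for the other settings are not given here, so changes in those counts are not read as results about the members.

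Member probe sets that differ between control lines were 9, and 5 with the filter at 32, which tests fewer of them. Those whose GSK3A change differs between lines were 1, and 0 with pseudocount 4, the random block or without HL-60, THP-1 or MOLM-14. With plate columns as a term they were 3, and without U937 they were 2. With the filter they were 0, but it drops IL1R1 202948_at and so did not test that call. Those whose GSK3B change differs were 0, and 1 with plate columns as a term or without U937.

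Without 1 array each, the counts ran from 2 to 4 (GSK3A), 0 to 0 (GSK3B), 2 to 5 (between targets), 7 to 9 (control lines), 0 to 2 (GSK3A by line), 0 to 1 (GSK3B by line), 8 to 9 and 3 to 3 (pathway). The count between targets reached 4 or 5 without the first MOLM-14 arrays of GSK3B hairpins 1 and 2 or the second of GSK3A hairpin 5. The GSK3A count by line was 0 without HL-60 controls 1 or 3 or the first HL-60 array of hairpin 5 or 6, and 2 without either U937 array of GSK3B hairpin 1; the second of these also gave the 1 for GSK3B.

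Arrays of the same replicate number did not deviate together in HL-60 (correlations -0.08 to 0.15) or THP-1 (-0.11 to 0.18), and did in part of the pairs in MOLM-14 (-0.60 to 0.76) and U937 (-0.69 to 0.79), so the number was not taken as a pairing. With the replicate block 4 other-member probe sets were called with GSK3A hairpins, 1 with GSK3B hairpins and 4 between targets. Pathway genes called were 11 with GSK3A hairpins and 5 with GSK3B hairpins. The share of all probe sets called in that fit is not given here, so these counts are not read as results about the members. IL1RAP was at 0.22 with GSK3A hairpins and -0.51 with GSK3B hairpins.

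Of the 25 named results, each lost its call in at least 1 setting. IL1R1 202948_at GSK3B hairpin 1 minus 2 reversed without HL-60, at -0.00086, where that probe set is dim. The cause of the other shifts was not tested.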
